A study of Mus musculus with 15 samples.

Results

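The EGF receptor family and its ligands were described as a list of 10 genes, chosen by symbol: the receptors Egfr, Erbb2 and Erbb3 and the ligands Egf, Areg, Ereg, Hbegf, Tgfa, Btc and Nrg4. Of these, 9 had a probe set with a single gene symbol, among 19938 genes measured in all, and each of the 9 had exactly 1 such probe set. Areg was not analysed here. The study hybridised whole-liver RNA of 15 mice, 3 in each of 5 groups, to Affymetrix whole-transcript arrays, with a separate array for each mouse. NEMO/Jnk1 DKO mice (global Jnk1-/-/NEMOΔhepa) lacked the stress kinase JNK1 in every cell and NEMO in hepatocytes, and NEMO/Jnk2 DKO mice (global Jnk2-/-/NEMOΔhepa) lacked JNK2 in every cell and NEMO in hepatocytes. Jnk1 KO (global Jnk1-/-) and Jnk2 KO (global Jnk2-/-) mice lacked 1 kinase each. WT mice were NEMO floxed/floxed, with NEMO intact. All mice had a C57BL/6 background, were labelled male and were 8 weeks old. NEMO, the regulatory subunit of the kinase complex that activates NF-kB, was deleted by Cre under the albumin (Alb) promoter, so that other liver cells kept it. The Jnk deletions were constitutive and thus also present in blood-derived and stromal cells. No group lacked NEMO alone among the samples analysed here, and whether the single knockouts carried the floxed NEMO allele or the Cre is not given in the sources used here. All values below are log2 expression levels, given with SD over n = 3 arrays unless stated, and all differences are log2 differences.

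The EGF receptor (Egfr) and its relatives Erbb2, Erbb3 and Erbb4 are receptor tyrosine kinases of the cell surface that pair with each other when a ligand binds and then signal through RAS and ERK, PI3K and STAT3. The ligands are made as membrane-bound precursors and released by proteases such as ADAM17. Egf, Tgfa and Areg bind the EGF receptor, Hbegf, Btc and Ereg bind it and Erbb4, and Nrg4, a neuregulin made by brown fat in mice, acts on liver cells through the neuregulin receptors. Hepatocytes carry much EGF receptor and Erbb3, and signals through the family are known for driving hepatocyte division during liver regeneration.

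Some arrays went against their labels. Mapk9, which encodes JNK2, read 2.39 to 2.84 in NEMO/Jnk2 DKO and 2.60 to 3.28 in Jnk2 KO livers, against 7.41 to 7.67 in the other 9 livers. Mapk8, which encodes JNK1, read 5.87 to 6.53 in NEMO/Jnk1 DKO and 6.06 to 6.23 in Jnk1 KO livers, against 6.58 to 7.03 elsewhere. Ikbkg, which encodes NEMO, read 6.18 to 6.85 in the double knockouts, against 7.03 to 7.41 in 7 of the 9 single-knockout and WT arrays. The remaining pair, labelled Jnk1 KO replicate 1 and Jnk2 KO replicate 3, read 6.75 and 6.24. Mmp12, an elastase of macrophages, was also at double-knockout levels in this pair (8.66 and 8.20), the double knockouts lying at 7.54 to 8.96 and the 7 arrays at 3.69 to 4.88. This pair is called the 2 doubted arrays below, and values include them, as labelled, unless the sentence says that they were left out. Calls are given for both choices of arrays. Ccnd1, described below, was also part of this judgement. The 2 arrays were set aside for a pattern that also separates the double knockouts from the rest, so the fit without them is not independent evidence. The array labelled Jnk1 KO replicate 1 and NEMO/Jnk1 DKO replicates 1 and 2 read 8.68 to 9.17 for Xist, the female X-inactivation transcript, against 2.40 to 2.82 in the other 12 arrays, although all mice were labelled male. The mean of 5 hepatocyte markers (Alb, Ttr, Apoa1, Serpina1c and Tat) was 12.80 to 12.86 in NEMO/Jnk1 DKO, 12.68 to 12.75 in NEMO/Jnk2 DKO, 12.79 to 12.89 in Jnk1 KO, 12.77 to 13.01 in Jnk2 KO and 12.87 to 13.00 in WT livers, so that both double knockouts lay just below WT. In whole liver, fewer cells of a type and less RNA per cell cannot be told apart.

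The promoters of Nrg4 and Btc, both of which differed between groups below, and of Egfr, the most widely known receptor of the family, are shown as the 250 bases before the start of each gene in RefSeq (GRCm38.p6), 5′ to 3′ on the gene's own strand. They lie at chr9:55283626-55283875 on the minus strand (Nrg4), chr5:91402995-91403244 on the minus strand (Btc) and chr11:16751953-16752202 on the plus strand (Egfr). The capitals mark a GC box.
Nrg4: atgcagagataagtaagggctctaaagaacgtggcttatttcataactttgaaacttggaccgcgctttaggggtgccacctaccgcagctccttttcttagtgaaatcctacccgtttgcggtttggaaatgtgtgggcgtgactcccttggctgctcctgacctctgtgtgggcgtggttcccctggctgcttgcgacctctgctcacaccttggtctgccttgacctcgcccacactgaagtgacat
Btc: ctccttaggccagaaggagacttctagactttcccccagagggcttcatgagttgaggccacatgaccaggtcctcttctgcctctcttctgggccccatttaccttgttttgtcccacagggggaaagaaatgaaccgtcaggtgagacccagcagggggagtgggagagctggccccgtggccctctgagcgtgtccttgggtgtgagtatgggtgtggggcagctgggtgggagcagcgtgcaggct
Egfr: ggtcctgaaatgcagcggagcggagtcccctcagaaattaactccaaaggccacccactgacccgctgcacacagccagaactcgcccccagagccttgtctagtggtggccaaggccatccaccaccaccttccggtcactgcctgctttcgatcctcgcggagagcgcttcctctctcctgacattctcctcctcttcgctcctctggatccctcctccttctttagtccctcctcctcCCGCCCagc
Entries were found for 7 of the 10 genes (Areg, Btc, Egf, Egfr, Erbb2, Nrg4 and Tgfa). Both strands were searched for the AP-1 motif TGANTCA, bound by the JUN factors that JNK kinases phosphorylate, the kappaB motif bound by NF-kB, the GC box GGGCGG and the TATA box TATAAA. Of 32851 mouse promoter windows of this length, 6.75% held the AP-1 motif, 5% the kappaB motif, 32.7% the GC box and 12.4% the TATA box. The Nrg4 and Btc windows held none of these letters, nor did those of Egf and Erbb2. The Egfr window held 1 GC box, 9 bases before the start, that of Tgfa held 2 and that of Areg held 1 together with 1 TATA box, with no overlap between motifs. A match is a description and not a binding site. Ereg, Areg and Btc follow one another in the RefSeq gene order on chromosome 5, next to Epgn, which encodes another EGF receptor ligand.

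Among the receptors, Egfr and Erbb3 varied widely between livers and Erbb2 varied little, and none passed the test in any comparison. Egfr, the receptor for most of the ligands, read 9.18, 10.31 and 10.89 in NEMO/Jnk1 DKO livers, 10.88, 11.11 and 10.46 in NEMO/Jnk2 DKO livers, 10.004, 11.24 and 11.05 in Jnk1 KO, 11.48, 11.52 and 10.69 in Jnk2 KO and 10.84, 10.84 and 11.09 in WT livers. The 3 lowest values belonged to the 3 arrays with the female Xist pattern, and the highest to Jnk2 KO replicates 1 and 2. Every knockout group overlapped WT. The SD of Egfr over all 15 arrays exceeded that of 97.4% of genes. Egfr differed by -0.79 (SE 0.39, 95% interval -1.64 to 0.05, limma adjusted p = 0.336) between NEMO/Jnk1 DKO and WT, and by -0.03 (adjusted p = 0.995) with a term for the sex read from the Xist and Y-linked genes. Without the 2 doubted arrays, the difference between NEMO/Jnk1 DKO and Jnk1 KO was -1.02 (SE 0.35, adjusted p = 0.126), and it was -0.26 (adjusted p = 0.909) with the sex term as well. In that last fit the NEMO/Jnk1 DKO group rested on replicate 3 alone.

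Erbb3, which binds neuregulins but has little kinase activity of its own, read 8.37, 9.05 and 9.48 in NEMO/Jnk1 DKO livers, 8.69, 9.13 and 9.19 in NEMO/Jnk2 DKO livers, 8.09, 9.38 and 9.41 in Jnk1 KO, 9.13, 9.17 and 8.69 in Jnk2 KO and 9.39, 9.58 and 9.34 in WT livers. All 3 NEMO/Jnk2 DKO and all 3 Jnk2 KO values were below the WT values, and the other 2 groups overlapped WT. Erbb3 differed from WT by -0.43 (95% interval -1.13 to 0.26, limma adjusted p = 0.529) in NEMO/Jnk2 DKO and by -0.44 (-1.14 to 0.26, adjusted p = 0.616) in Jnk2 KO. Leaving out the 2 doubted arrays gave adjusted p of 0.261 for NEMO/Jnk2 DKO at the same difference and 0.695 for Jnk2 KO at -0.29. The 2 lowest readings were those of Jnk1 KO replicate 1 and NEMO/Jnk1 DKO replicate 1, both with the female pattern. Over the 15 arrays Egfr and Erbb3 had a Pearson r of 0.665, and Egfr and Hbegf one of -0.709, given as descriptions of arrays that share the 3 of the female pattern and the group differences. Erbb2, which has no known ligand of its own and serves as the partner of the other receptors, averaged 4.33 ± 0.15 in NEMO/Jnk1 DKO, 4.18 ± 0.18 in NEMO/Jnk2 DKO, 4.32 ± 0.068 in Jnk1 KO, 4.30 ± 0.19 in Jnk2 KO and 4.30 ± 0.21 in WT livers. Its levels lay between 3.97 and 4.48 in all arrays, close to 4.09, the 40th percentile of all values, which 12 of 15 arrays exceeded. Its largest difference from WT was -0.13 (95% interval -0.41 to 0.16, the same without the 2 doubted arrays), in NEMO/Jnk2 DKO.

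**Figure D1:**
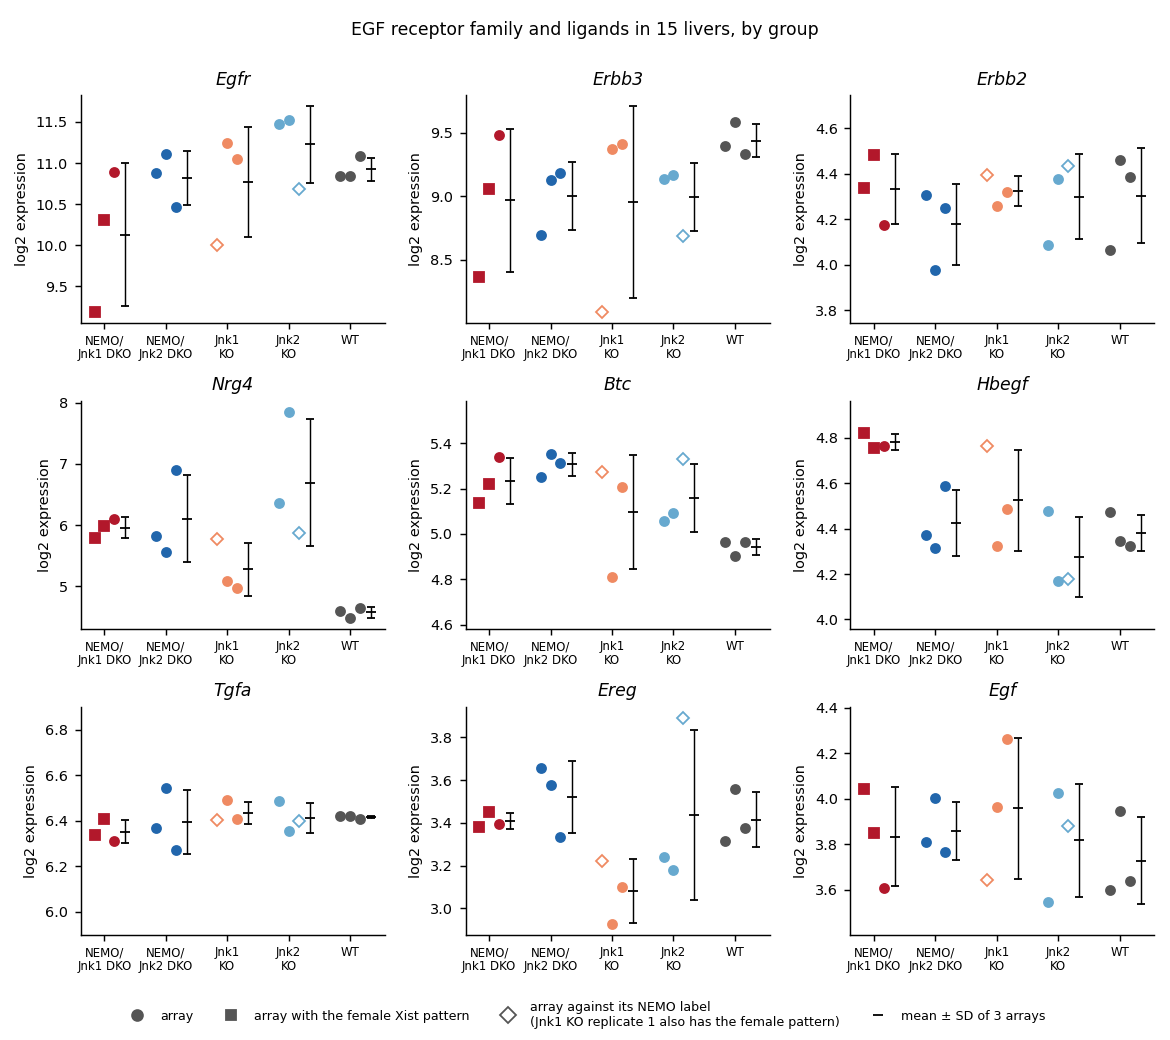
Log2 expression of the 9 measured members in each of 15 livers, by group, with the mean and SD of 3 arrays beside the points. Squares mark arrays with the female Xist pattern and open diamonds the 2 arrays that go against their NEMO label. All 12 Jnk-null livers lie above the 3 WT livers for Nrg4, and the 3 lowest Egfr values are the arrays of the female pattern.

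Nrg4 was the member that differed most. It read 5.78, 5.99 and 6.11 in NEMO/Jnk1 DKO livers, 5.83, 5.57 and 6.91 in NEMO/Jnk2 DKO livers, 5.77, 5.08 and 4.97 in Jnk1 KO, 6.36, 7.86 and 5.86 in Jnk2 KO and 4.60, 4.47 and 4.64 in WT livers. The 3 WT livers were the lowest of all 15, and the highest was Jnk2 KO replicate 2, followed by NEMO/Jnk2 DKO replicate 3. Nrg4 was thus the 1 of 9 members for which all 12 Jnk-null arrays lay above all 3 WT arrays, a pattern held by 0.451% of all genes. Its SD over the arrays exceeded that of 99.1% of genes. By group the order of the means was Jnk2 KO (6.69 ± 1.04), NEMO/Jnk2 DKO (6.10 ± 0.71), NEMO/Jnk1 DKO (5.96 ± 0.17), Jnk1 KO (5.28 ± 0.43) and WT (4.57 ± 0.086). No pair of neighbours in that order passed the test, their limma adjusted p lying between 0.767 and 0.999.

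Between Jnk2 KO and WT, Nrg4 was higher by 2.12 (SE 0.42, 95% interval 1.21 to 3.03, limma adjusted p = 0.0482), a fold of 4.35. It was higher by 2.54 (SE 0.38, adjusted p = 0.00712) without the 2 doubted arrays, that is with Jnk2 KO replicates 1 and 2. The call as labelled was marginal. It held when NEMO/Jnk2 DKO replicate 3, Jnk1 KO replicate 1 or Jnk2 KO replicate 3 was left out, and was lost (adjusted p from 0.0559 to 0.157) when any 1 of the other 12 arrays was left out, the difference being 1.54 without Jnk2 KO replicate 2. In NEMO/Jnk1 DKO the difference from WT was 1.39 (SE 0.42, 95% interval 0.48 to 2.30, adjusted p = 0.148), and in NEMO/Jnk2 DKO it was 1.53 (SE 0.42, 0.62 to 2.44, adjusted p = 0.0711). Both passed without the 2 doubted arrays, at the same differences, with an adjusted p of 0.0253 for NEMO/Jnk1 DKO and of 0.0115 for NEMO/Jnk2 DKO. With the sex term added to that fit, the limma adjusted p was 0.00962 for Jnk2 KO and 0.0150 for NEMO/Jnk2 DKO. The only female-pattern arrays left were NEMO/Jnk1 DKO replicates 1 and 2. The term therefore could not change the differences of the Jnk2-null groups from WT, and does not test the part of sex in them. NEMO/Jnk1 DKO then rested on replicate 3 alone, with a difference of 1.53 (SE 0.50, adjusted p = 0.193) against 1.39 (SE 0.34) before, so that this p is that of an arm of 1 array. Jnk1 KO differed from WT by 0.70 (SE 0.42, -0.20 to 1.61, adjusted p = 0.866), and by 0.46 (SE 0.38, -0.37 to 1.29, adjusted p = 0.983) without the array labelled Jnk1 KO replicate 1 and the other doubted array.

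Btc, betacellulin, read 5.14, 5.22 and 5.34 in NEMO/Jnk1 DKO livers, 5.25, 5.35 and 5.31 in NEMO/Jnk2 DKO livers, 5.27, 4.81 and 5.21 in Jnk1 KO, 5.06, 5.09 and 5.33 in Jnk2 KO and 4.97, 4.90 and 4.96 in WT livers. All arrays of the NEMO/Jnk1 DKO, NEMO/Jnk2 DKO and Jnk2 KO groups were above all WT arrays, and Jnk1 KO overlapped WT through replicate 2. Between NEMO/Jnk2 DKO and WT the difference was 0.36 (SE 0.12, 95% interval 0.11 to 0.61, limma adjusted p = 0.109), and Btc passed without the 2 doubted arrays (SE 0.10, adjusted p = 0.0391), a fold of 1.28. In NEMO/Jnk1 DKO it differed from WT by 0.29 (0.04 to 0.54, adjusted p = 0.241, and 0.114 without the 2 doubted arrays). Jnk2 KO and Jnk1 KO differed from WT by 0.22 (-0.03 to 0.46) and 0.15 (-0.10 to 0.40).

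Hbegf, the heparin-binding EGF-like ligand, read 4.82, 4.75 and 4.76 in NEMO/Jnk1 DKO livers, 4.37, 4.31 and 4.59 in NEMO/Jnk2 DKO livers, 4.76, 4.33 and 4.48 in Jnk1 KO, 4.48, 4.17 and 4.18 in Jnk2 KO and 4.47, 4.34 and 4.32 in WT livers. The NEMO/Jnk1 DKO values and the doubted Jnk1 KO replicate 1 were the highest, and the groups other than NEMO/Jnk1 DKO overlapped WT. Hbegf was 0.40 higher in NEMO/Jnk1 DKO than in WT (SE 0.12, 95% interval 0.14 to 0.66, limma adjusted p = 0.147), and passed without the 2 doubted arrays (SE 0.10, adjusted p = 0.0333), a fold of 1.32. Leaving out the array labelled Jnk1 KO replicate 1 alone also gave a call (adjusted p = 0.0486). With the sex term added to the fit without the 2 doubted arrays the difference was 0.38 (SE 0.15, adjusted p = 0.325), again with replicate 3 as the 1 array of NEMO/Jnk1 DKO that sets it. Between the double knockouts, NEMO/Jnk2 DKO less NEMO/Jnk1 DKO, Hbegf differed by -0.35 (SE 0.12, -0.61 to -0.10, adjusted p = 0.634). In NEMO/Jnk2 DKO its difference from WT was 0.04 (-0.21 to 0.30).

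Tgfa, the ligand known from autocrine growth of hepatocytes, averaged 6.35 ± 0.051 in NEMO/Jnk1 DKO, 6.39 ± 0.14 in NEMO/Jnk2 DKO, 6.43 ± 0.049 in Jnk1 KO, 6.41 ± 0.066 in Jnk2 KO and 6.42 ± 0.0059 in WT livers. It was the steadiest member, with 1.32% of genes showing a smaller SD over the 15 arrays. The 95% intervals of its differences from WT ran from -0.24 to 0.11 in NEMO/Jnk1 DKO, -0.20 to 0.15 in NEMO/Jnk2 DKO, -0.16 to 0.19 in Jnk1 KO and -0.18 to 0.17 in Jnk2 KO. With the 2 doubted arrays left out the intervals ran from -0.25 to 0.13, -0.21 to 0.17, -0.18 to 0.25 and -0.21 to 0.22 in these groups. Ereg and Egf were dim. Ereg, epiregulin, stayed below 4.09 in all 15 arrays and Egf exceeded it in 1. Ereg averaged 3.41 ± 0.038 in NEMO/Jnk1 DKO, 3.52 ± 0.17 in NEMO/Jnk2 DKO, 3.08 ± 0.15 in Jnk1 KO, 3.44 ± 0.40 in Jnk2 KO and 3.42 ± 0.13 in WT livers. The 3 Jnk1 KO readings (3.22, 2.93 and 3.10) were below those of WT (3.31, 3.56 and 3.37) and of NEMO/Jnk1 DKO, and the difference from WT was -0.33 (SE 0.16, 95% interval -0.68 to 0.01, limma adjusted p = 0.860). Egf itself averaged 3.83 ± 0.22 in NEMO/Jnk1 DKO, 3.86 ± 0.13 in NEMO/Jnk2 DKO, 3.96 ± 0.31 in Jnk1 KO, 3.82 ± 0.25 in Jnk2 KO and 3.73 ± 0.19 in WT livers, all groups overlapping, and its largest difference from WT was 0.23 (-0.13 to 0.60) in Jnk1 KO. At such low signal a difference in Ereg or Egf would be hard to see on these arrays.

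The comparisons of the single knockouts with WT ask what the loss of 1 JNK kinase does when NEMO is intact. Nrg4 rose in Jnk2 KO, 1 of 9 members, where 0.411% of all genes passed, and 0 members fell. Without the 2 doubted arrays Nrg4 was again the 1 member, against 1.24% of genes. In Jnk1 KO, 0 of 9 members passed in limma where 0.01% of genes did, and 0 had an unadjusted p under 0.05, where 5.58% of genes did. Leaving out the 2 doubted arrays, 0 passed, against 0.015% of genes, and 2 had an unadjusted p under 0.05 (Ereg at -0.40 and Egf at 0.39, both dim), as 5.07% of genes did. By arrays alone, 2 members (Btc and Nrg4) had all Jnk2 KO values above WT, as 6.16% of genes did, and 1 (Erbb3) had them all below, as 10.9% did. In Jnk1 KO, 1 member (Nrg4) was above, as 2.45% of genes were, and 1 (Ereg) below, as 6.21% were. The median difference of the members from WT was 0.02 in Jnk2 KO, against -0.04 over all genes, and 0.02 in Jnk1 KO, against -0.03 over all genes.

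The double knockouts were compared with WT as the joint loss of NEMO in hepatocytes and of 1 JNK kinase. As labelled, 0 of 9 members passed in NEMO/Jnk1 DKO in limma, where 0.0652% of genes did, and 3 members (Nrg4, Hbegf and Btc) had an unadjusted p under 0.05, as 16.3% of genes did. In NEMO/Jnk2 DKO 0 of 9 passed, where 2.63% of genes did, and 2 (Nrg4 and Btc) had an unadjusted p under 0.05, as 18.9% of genes did. Without the 2 doubted arrays, ligands rose: Nrg4 and Hbegf in NEMO/Jnk1 DKO, 2 of 9 members against 7.91% of genes, and Nrg4 and Btc in NEMO/Jnk2 DKO, 2 of 9 against 10.6% of genes, and 0 members fell in either. Nrg4 alone passed in NEMO/Jnk2 DKO when Jnk1 KO replicate 1, Jnk2 KO replicate 2 or Jnk2 KO replicate 3 was the single array left out (adjusted p of 0.0385, 0.0271 and 0.0360). Hbegf, Btc and Nrg4 had all NEMO/Jnk1 DKO values above WT, as 11.5% of genes did. In NEMO/Jnk2 DKO, Btc and Nrg4 were above WT, as 11.8% of genes were, and Erbb3 below, as 15.9% were. All 4 comparisons with WT share the same 3 WT livers, so their values are given side by side and not as repeats of one another.

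**Figure D2:**
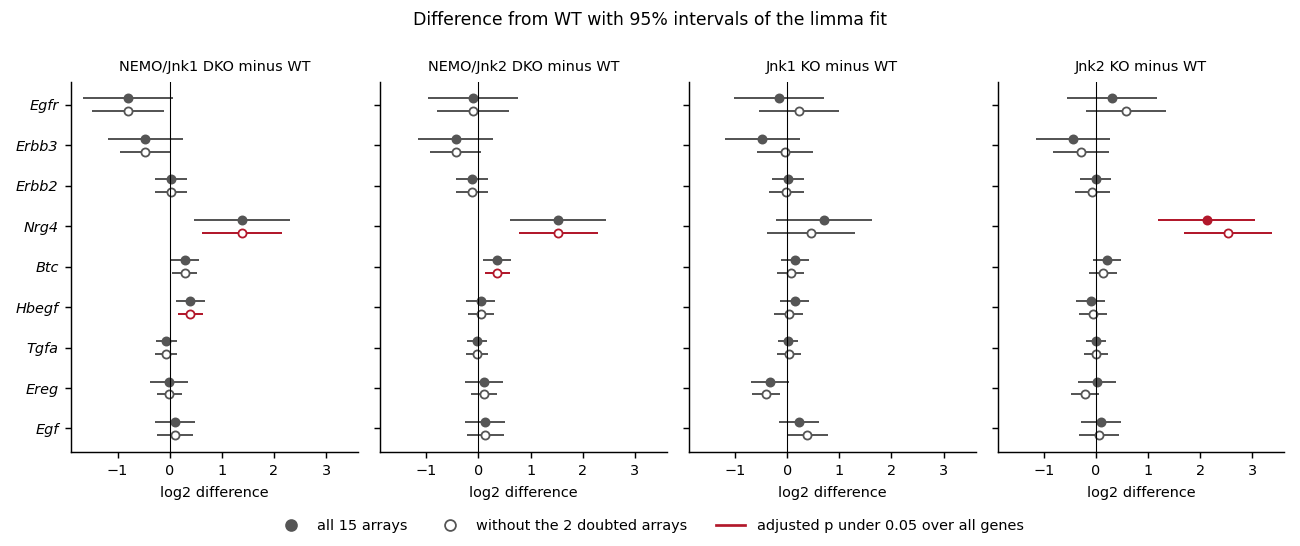
Log2 difference of each member from WT in the 4 knockout groups, with 95% intervals from the limma fit, for all 15 arrays (filled) and without the 2 doubted arrays (open). Red marks an adjusted p under 0.05 over all genes. Nrg4 lies to the right of 0 in every panel and its interval excludes 0 in all groups but Jnk1 KO.

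The loss of NEMO on a Jnk-null background, read as each double knockout against its own single knockout, moved no member past the threshold. On the Jnk1-null background 0 of 9 passed in limma as labelled, where 0% of genes did, and 0 had an unadjusted p under 0.05, where 4.55% of genes did. Without the 2 doubted arrays 0 passed, against 5.18% of genes, and 4 members (Egfr, Ereg, Hbegf and Nrg4) had an unadjusted p under 0.05, as 16.8% of genes did. On the Jnk2-null background 0 passed, against 0.00502% of genes as labelled and 5.85% without the 2 doubted arrays, with 0 and 2 members (Nrg4 and Ereg) at an unadjusted p under 0.05, against 7.91% and 18.1% of genes. Nrg4 had opposite signs on the 2 backgrounds. It differed by 0.68 (SE 0.42, 95% interval -0.23 to 1.59) between NEMO/Jnk1 DKO and Jnk1 KO and by -0.59 (SE 0.42, -1.50 to 0.31) between NEMO/Jnk2 DKO and Jnk2 KO. The Jnk2-null effect less the Jnk1-null effect was -1.28 (SE 0.60, -2.56 to 0.01, adjusted p = 1) as labelled and -1.94 (SE 0.54, -3.11 to -0.77, adjusted p = 0.387) without the 2 doubted arrays. In that test 0 of 9 members passed under either choice of arrays, against 0% of genes as labelled and 0.01% without the doubted arrays, and the members at an unadjusted p under 0.05 were 0 as labelled and 1, Nrg4, without them, against 2.75% and 6.59% of genes. By arrays alone, Ereg and Nrg4 had all NEMO/Jnk1 DKO values above Jnk1 KO, as 2.52% of genes did, and 0 members had all NEMO/Jnk2 DKO values above Jnk2 KO, as 5.28% of genes did.

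Jnk2-null livers were also set against Jnk1-null livers. With NEMO intact, Nrg4 was 1.42 higher in Jnk2 KO than in Jnk1 KO (SE 0.42, 95% interval 0.51 to 2.33, limma adjusted p = 0.363), and 0 of 9 members passed, against 0.13% of genes, with 2 (Nrg4 and Ereg) at an unadjusted p under 0.05, as 7% of genes were. It was 2.08 higher without the 2 doubted arrays (SE 0.42, 1.17 to 2.99, adjusted p = 0.0466), 1 of 9 members against 0.597% of genes, with 2 arrays left in each group. With a sex term in that fit the difference was again 2.08 (SE 0.43, adjusted p = 0.0593), since neither group then held an array of the female pattern. Between NEMO/Jnk2 DKO and NEMO/Jnk1 DKO 0 of 9 passed, against 0.105% of genes as labelled and 0.321% without the doubted arrays, with 1 member (Hbegf) and 2 members (Hbegf and Egfr) at an unadjusted p under 0.05, against 5.44% and 7.5% of genes. Over all Jnk2-null against all Jnk1-null livers 0 of 9 passed, against 0.547% and 1.12% of genes, with 2 members (Nrg4 and Hbegf) at an unadjusted p under 0.05 under both choices of arrays, against 8.95% and 12% of genes. There Nrg4 differed by 0.78 (SE 0.30, 0.14 to 1.42, adjusted p = 0.411) and Hbegf by -0.30 (SE 0.08, -0.48 to -0.12, adjusted p = 0.179) as labelled.

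For the 3 members past the threshold in any comparison, the genes of most similar pattern were taken as those with the highest Pearson r over the 15 arrays, among 17216 genes. These arrays share the group differences, so r is a description. For Nrg4 they were Tnfrsf1a, the main TNF receptor (r = 0.951), Cers6, a ceramide synthase (r = 0.909), and Sema4b, a semaphorin (r = 0.901). Tnfrsf1a read 8.56 to 8.64 in NEMO/Jnk1 DKO, 8.57 to 8.92 in NEMO/Jnk2 DKO, 8.10 to 8.55 in Jnk1 KO, 8.60 to 9.11 in Jnk2 KO and 8.11 to 8.25 in WT livers. Its highest arrays were Jnk2 KO replicate 2 and NEMO/Jnk2 DKO replicate 3, as for Nrg4. For Btc they were Fcgr3, an Fc receptor of myeloid cells (r = 0.930), Ifi27l2a, an interferon-induced gene (r = 0.887), and Ttc39a (r = 0.880). Ifi27l2a read 5.10 to 5.27 in NEMO/Jnk1 DKO, 5.65 to 6.19 in NEMO/Jnk2 DKO, 3.79 to 6.00 in Jnk1 KO, 4.15 to 5.70 in Jnk2 KO and 3.97 to 4.18 in WT livers. For Hbegf they were Ctso, which encodes cathepsin O (r = 0.932), Pign, an enzyme of membrane anchor synthesis (r = 0.860), and Ttyh3 (r = 0.858).

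**Figure D3:**
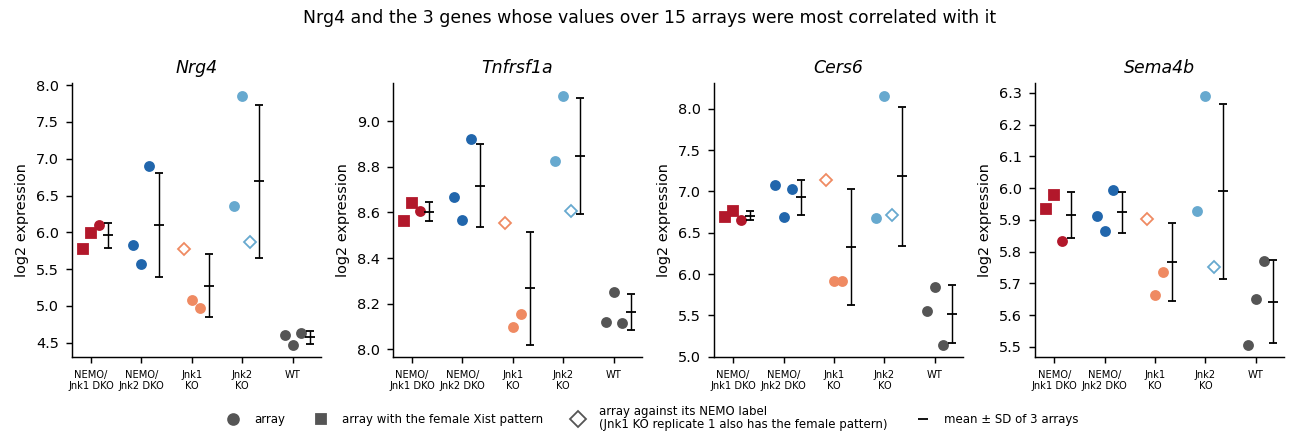
Log2 expression of Nrg4 and of the 3 genes with the highest Pearson r with it over 15 arrays, by group, with the mean and SD of 3 arrays. Jnk2 KO replicate 2, the highest Nrg4 array at 7.86, is also the highest for Tnfrsf1a, Cers6 and Sema4b.

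Beyond the members, 41 of 44 listed genes of the pathway were measured. As labelled 1 of the 41 passed in any comparison: Grb7, an adaptor that binds the activated receptors, was lower in Jnk2 KO than in WT by 1.02 (log2 difference -1.02, SE 0.17, limma adjusted p = 0.0215). At an unadjusted p under 0.05 the counts as labelled were 3 of 41 between NEMO/Jnk1 DKO and Jnk1 KO (4.55% of all genes), 5 between NEMO/Jnk2 DKO and Jnk2 KO (7.91%), 13 between NEMO/Jnk1 DKO and WT (16.3%), 11 between NEMO/Jnk2 DKO and WT (18.9%), 2 between Jnk1 KO and WT (5.58%) and 12 between Jnk2 KO and WT (12.1%). They were 8 between Jnk2 KO and Jnk1 KO (7% of all genes), 2 between NEMO/Jnk2 DKO and NEMO/Jnk1 DKO (5.44%), 8 between all Jnk2-null and all Jnk1-null livers (8.95%) and 4 in the difference of the NEMO effects (2.75%). Without the 2 doubted arrays more passed in the double knockouts, with 3 up and 0 down of 41 between NEMO/Jnk1 DKO and Jnk1 KO, 4 up and 2 down between NEMO/Jnk2 DKO and Jnk2 KO, 3 up and 2 down between NEMO/Jnk1 DKO and WT, and 7 up and 2 down between NEMO/Jnk2 DKO and WT. These may be read against the 5.18%, 5.85%, 7.91% and 10.6% of all genes given above. The median over the 41 genes was 0.13, 0.02, 0.07 and 0.02 in these comparisons, against -0.01, -0.01, -0.04 and -0.04 over all genes. Without these arrays Jnk2 KO had 3 up and 1 down against WT (1.24% of all genes passed) and 2 up and 1 down against Jnk1 KO (0.597%). All Jnk2-null had 1 up and 1 down against all Jnk1-null livers (1.12%), again without these arrays. In that fit 0 passed in limma between Jnk1 KO and WT, between the double knockouts and in the difference of the NEMO effects. Of all genes 0.015%, 0.321% and 0.01% passed there. The counts at an unadjusted p under 0.05 were 1, 2 and 10, against 5.07%, 7.5% and 6.59% of all genes.

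Among the other ligands and receptors (Nrg1, Nrg2, Nrg3, Epgn and Erbb4), Nrg1, the neuregulin that binds Erbb3 and Erbb4, was the gene that rose. Its median was 5.04 (5.02 to 5.18) in NEMO/Jnk1 DKO and 4.98 (4.77 to 5.23) in NEMO/Jnk2 DKO, against 4.42 (4.24 to 5.59) in Jnk1 KO, 4.49 (4.44 to 5.02) in Jnk2 KO and 4.59 (4.53 to 4.61) in WT livers. The highest Jnk1 KO and Jnk2 KO values of Nrg1 were the 2 doubted arrays. Without them Nrg1 differed by 0.75 (SE 0.12, adjusted p = 0.00323) between NEMO/Jnk1 DKO and Jnk1 KO, 0.53 (adjusted p = 0.0232) between NEMO/Jnk2 DKO and Jnk2 KO, 0.50 (adjusted p = 0.0136) between NEMO/Jnk1 DKO and WT and 0.42 (adjusted p = 0.0288) between NEMO/Jnk2 DKO and WT. Nrg2, another neuregulin, fell by 0.34 between NEMO/Jnk1 DKO and WT without the doubted arrays (limma adjusted p = 0.0458, and 0.125 as labelled). Erbb4, named because it completes the receptor family, passed in no comparison, its difference from WT being 0.12 for NEMO/Jnk1 DKO and -0.72 for NEMO/Jnk2 DKO.

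Of 6 proteases and partners that release the ligands, 3 rose between NEMO/Jnk2 DKO and WT without the doubted arrays, where 10.6% of all genes passed. In that fit they were Rhbdf1 (0.60, limma adjusted p = 0.00375) and Rhbdf2 (0.46, adjusted p = 0.0127), the inactive rhomboids that carry ADAM17 to the cell surface, and Adam17 itself (0.43, adjusted p = 0.0105). As labelled Adam17 and Rhbdf2 did not pass there (limma adjusted p = 0.0804 and 0.101). Adam17 read 7.81 to 7.85 in NEMO/Jnk2 DKO, against 7.37 to 7.43 in WT livers, and the 2 doubted arrays read 7.69 and 7.90. All NEMO/Jnk1 DKO (7.65 to 7.68) and Jnk2 KO (7.61 to 7.90) values were also above WT, as for 11.5% and 6.16% of genes. Jnk1 KO read 7.09 to 7.69. Between NEMO/Jnk2 DKO and Jnk2 KO, Adam17 differed by 0.12 as labelled (limma adjusted p = 0.857). Rhbdf1 also rose in NEMO/Jnk1 DKO without the doubted arrays, by 0.68 against WT (limma adjusted p = 0.00239) and by 0.53 against Jnk1 KO (adjusted p = 0.0273). As labelled it did not pass there (adjusted p = 0.157 and 0.962).

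Of 9 adaptors and effectors, Grb7 and, only without the doubted arrays, Stat3 differed between Jnk2 KO and WT livers. Grb7 had a median of 8.46 in NEMO/Jnk1 DKO, 8.29 in NEMO/Jnk2 DKO, 8.81 in Jnk1 KO, 7.85 (7.68 to 8.05) in Jnk2 KO and 8.85 (8.79 to 9.01) in WT livers, and the doubted Jnk1 KO array was that group's lowest at 8.18. Stat3, the transcription factor downstream of several receptors, had a median of 8.66 in NEMO/Jnk1 DKO, 8.83 in NEMO/Jnk2 DKO, 8.56 in Jnk1 KO, 9.46 (8.94 to 9.51) in Jnk2 KO and 8.57 (8.49 to 8.69) in WT livers. Without the doubted arrays Stat3 was higher in Jnk2 KO than in WT by 0.90 (SE 0.15, adjusted p = 0.0107) and Grb7 lower (-1.12, SE 0.13, adjusted p = 0.00156), and between NEMO/Jnk2 DKO and Jnk2 KO Stat3 differed by -0.57 (adjusted p = 0.0417) and Grb7 by 0.51 (adjusted p = 0.0398). Grb7 was, without the doubted arrays, also lower than in WT in NEMO/Jnk1 DKO (-0.43, limma adjusted p = 0.0407) and in NEMO/Jnk2 DKO (-0.61, adjusted p = 0.00500). It was lower in Jnk2 KO than in Jnk1 KO without them (-1.07, adjusted p = 0.00400). As labelled these adjusted p were 0.228, 0.074 and 0.164. Stat3 was higher in Jnk2 KO than in Jnk1 KO without the doubted arrays (1.02, limma adjusted p = 0.0122, and 0.135 as labelled). In all Jnk2-null against all Jnk1-null livers without them, Stat3 was at 0.64 (limma adjusted p = 0.0101) and Grb7 at -0.62 (adjusted p = 0.00603). In that comparison as labelled the adjusted p were 0.0804 for Stat3 and 0.139 for Grb7. Src rose without the doubted arrays, by 0.49 between NEMO/Jnk2 DKO and Jnk2 KO (limma adjusted p = 0.0216) and by 0.34 between NEMO/Jnk2 DKO and WT (adjusted p = 0.0492). In the latter comparison Plcg1, phospholipase C gamma, was at -0.39 (adjusted p = 0.0422 without the doubted arrays and 0.0899 as labelled).

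Of 13 feedback inhibitors, Lrig1, which promotes degradation of the receptors, was higher in Jnk2 KO than in WT by 0.82 (SE 0.13, adjusted p = 0.00825) and than in Jnk1 KO by 0.74 (adjusted p = 0.0349) without the doubted arrays, and it was lower in NEMO/Jnk2 DKO than in Jnk2 KO (-1.003, adjusted p = 0.000755). Its medians were 6.19 in NEMO/Jnk1 DKO, 6.25 in NEMO/Jnk2 DKO, 6.48 in Jnk1 KO, 7.15 in Jnk2 KO and 6.39 in WT livers. Spred1, an inhibitor of RAS signalling, was higher than in WT without the doubted arrays, in NEMO/Jnk2 DKO (0.47, limma adjusted p = 0.0304) and in Jnk2 KO (0.65, adjusted p = 0.0429). As labelled it did not pass there (adjusted p = 0.147 and 0.0757). Of 8 target genes, Ccnd1, the gene of cyclin D1, which also answers to other growth signals, was the 1 that passed, and only without the doubted arrays. It read 9.45 to 9.78 in NEMO/Jnk1 DKO and 8.45 to 9.39 in NEMO/Jnk2 DKO, against 6.52, 6.76 and, in the doubted array, 10.34 in Jnk1 KO, 7.03, 8.13 and, in the doubted array, 9.53 in Jnk2 KO and 6.38 to 7.24 in WT livers. The doubted arrays thus stood with or above the double knockouts. Without them Ccnd1 was higher in NEMO/Jnk1 DKO than in Jnk1 KO by 3.02 (SE 0.33, adjusted p = 0.000293) and in NEMO/Jnk2 DKO than in Jnk2 KO by 1.48 (SE 0.33, adjusted p = 0.0183), and it was higher than in WT by 2.84 (adjusted p = 0.000166) in NEMO/Jnk1 DKO and by 2.24 (adjusted p = 0.000389) in NEMO/Jnk2 DKO. For these pathway genes the part of the female-pattern arrays in the NEMO/Jnk1 DKO differences was not tested.

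**Figure D4:**
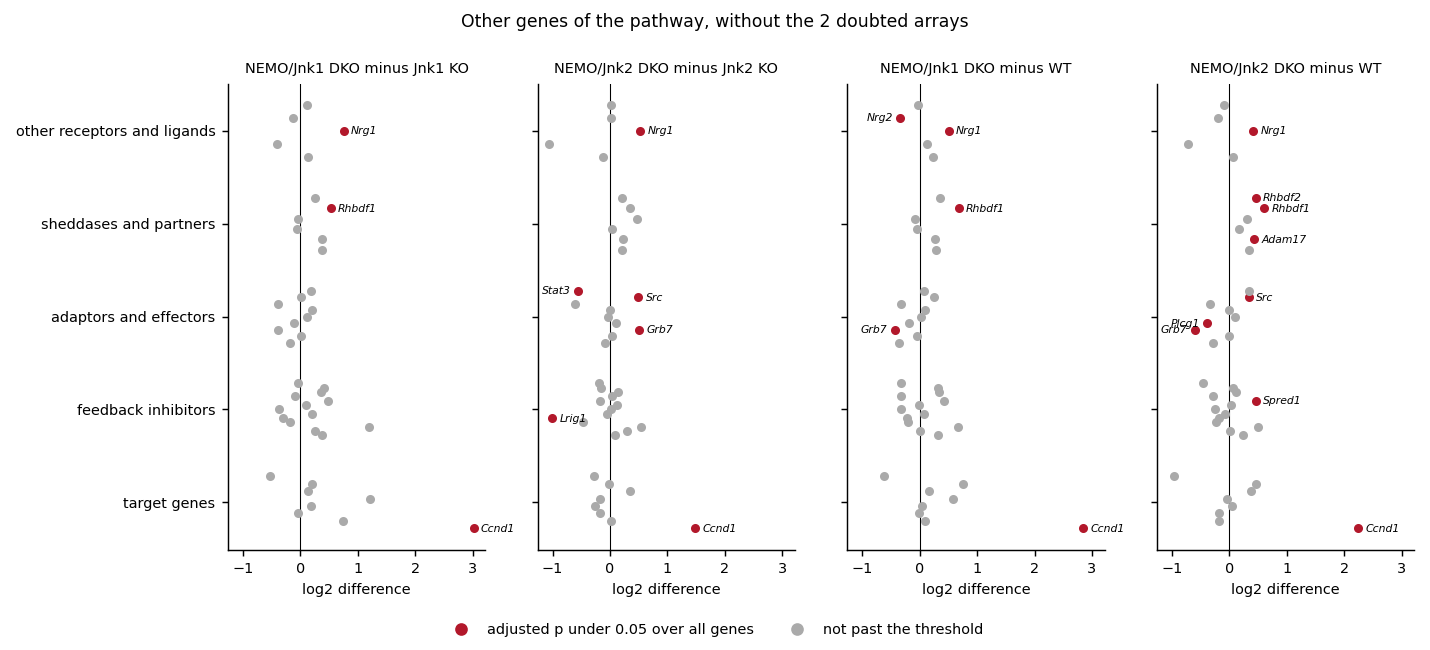
Log2 differences of the 41 measured pathway genes outside the member list, in 5 lists, for the double knockouts against their single knockouts and against WT, without the 2 doubted arrays. Red points with names passed at an adjusted p under 0.05. Nrg1 and Ccnd1 lie right of 0 and passed in all 4 panels. Ccnd1 was among the genes by which the 2 arrays were doubted.

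Markers of several other cell types were higher in the double knockouts, and the mean of the neutrophil markers, though not each of them, in the Jnk2-null groups. The mean level of 8 monocyte and macrophage genes (Adgre1, Cd68, Csf1r, Itgam, Ccr2, Mmp12, Gpnmb and Trem2) was 6.34 to 6.75 in NEMO/Jnk1 DKO and 6.31 to 6.69 in NEMO/Jnk2 DKO, against 4.93 to 4.98 in Jnk1 KO and 4.98 to 5.00 in Jnk2 KO without their doubted arrays (6.71 and 6.98) and 4.94 to 5.06 in WT livers. As labelled, 0 of 8 passed in limma between NEMO/Jnk1 DKO and WT (6 at an unadjusted p under 0.05, against 16.3% of all genes). Between NEMO/Jnk2 DKO and WT 1 of 8 rose, where 2.63% of all genes passed. Without the doubted arrays, 6 of 8 rose in NEMO/Jnk1 DKO and 7 of 8 in NEMO/Jnk2 DKO livers, where 7.91% and 10.6% of all genes passed, and 0 of 8 passed in either single knockout, where 0 also had an unadjusted p under 0.05. As labelled 0 of 8 passed in either single knockout. There 0 in Jnk1 KO and 1 in Jnk2 KO had an unadjusted p under 0.05, against 5.58% and 12.1% of all genes. Mmp12, by which the 2 arrays were doubted, is among the 8. The counts without these arrays are therefore not independent of that choice. The mean of 4 stellate cell genes was 6.81 to 7.11 in NEMO/Jnk1 DKO and 6.81 to 6.98 in NEMO/Jnk2 DKO, against 5.77 to 6.09 in WT livers. It was 5.68 to 5.88 in Jnk1 KO and 5.66 to 5.84 in Jnk2 KO without their doubted arrays (7.03 and 7.24). Against WT, 0 of these 4 stellate genes passed as labelled in limma in either double knockout, where 0.0652% (NEMO/Jnk1 DKO) and 2.63% (NEMO/Jnk2 DKO) of all genes did. In each, 2 were at an unadjusted p under 0.05, against 16.3% and 18.9% of all genes. Without the doubted arrays 3 rose in NEMO/Jnk1 DKO livers and 2 in NEMO/Jnk2 DKO livers, against 7.91% and 10.6% of all genes. Of 4 Kupffer cell genes 0 passed against WT as labelled in limma. At an unadjusted p under 0.05 were 3 in NEMO/Jnk1 DKO livers and 2 in NEMO/Jnk2 DKO livers, against 16.3% and 18.9% of all genes. Without the doubted arrays 2 and 1 rose there, against 7.91% and 10.6%. Their mean was 8.00 to 8.52 in NEMO/Jnk1 DKO, 7.67 to 7.98 in Jnk1 KO and 7.08 to 7.91 in Jnk2 KO livers. In NEMO/Jnk2 DKO (7.60 to 8.36) it overlapped WT (6.84 to 7.75). The part of these cell types in the Btc, Hbegf, Nrg4 and Nrg1 differences of the double knockouts was not tested.

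The 4 neutrophil genes (S100a8, S100a9, Ly6g and Retnlg) averaged 3.24 to 3.46 in NEMO/Jnk1 DKO, 3.47 to 3.83 in NEMO/Jnk2 DKO, 3.19 to 3.38 in Jnk1 KO, 3.56 to 3.78 in Jnk2 KO and 3.14 to 3.27 in WT livers, all below the 4.09 used above as a mark of dim signal. The means of both Jnk2-null groups lay above those of all WT and all Jnk1-null arrays, by a narrow margin. The lowest NEMO/Jnk2 DKO mean was 3.47 and the highest NEMO/Jnk1 DKO mean 3.46. In limma 0 of 4 passed as labelled against WT. All but Ly6g, 3 of 4, were at an unadjusted p under 0.05 both in NEMO/Jnk2 DKO and in Jnk2 KO, against 18.9% and 12.1% of all genes. Without the doubted arrays S100a8 (0.67, limma adjusted p = 0.0266) and Retnlg (0.54, adjusted p = 0.0473) rose between NEMO/Jnk2 DKO and WT, where 10.6% of all genes passed. Between Jnk2 KO and WT 0 of 4 passed, against 1.24% of genes. There 3 (S100a8, S100a9 and Ly6g, but not Retnlg) were at an unadjusted p under 0.05, against 12.9% of genes, and the median difference was 0.42. Ly6g was at 0.29 in Jnk2 KO against WT (adjusted p = 0.343) and at -0.29 in NEMO/Jnk2 DKO against Jnk2 KO (adjusted p = 0.234) in this fit. For Nrg4 in Jnk2 KO against WT, the 2 remaining Jnk2 KO arrays thus had neutrophil means above WT and macrophage means of 4.98 to 5.00, against 4.94 to 5.06 in WT, beside Nrg4 levels of 6.36 and 7.86, against 4.47 to 4.64 in WT. The macrophage means of these arrays are not independent of setting the doubted array aside by Mmp12, 1 of the 8 genes. The part of the neutrophil genes in the Nrg4 difference was not tested.

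Of the 5 hepatocyte markers, Tat, a liver enzyme of tyrosine breakdown, passed without the doubted arrays. It was lower in NEMO/Jnk2 DKO than in WT (-0.58, adjusted p = 0.0252, and 0.108 as labelled) and than in Jnk2 KO (-0.65, adjusted p = 0.0368, and 0.595 as labelled at -0.46). Of 4 endothelial genes, Pecam1 was higher in NEMO/Jnk1 DKO than in WT by 0.44 (limma adjusted p = 0.0232 without the doubted arrays and 0.1599 as labelled). In Jnk2 KO it was also above WT, by 0.36 without the doubted arrays (adjusted p = 0.191). The cholangiocyte list had 0 of 5 genes past the threshold in limma against WT in all 4 groups. There 0 of 5 were at an unadjusted p under 0.05 in NEMO/Jnk1 DKO as labelled and 2 without the doubted arrays, against 16.3% and 20.8% of all genes. In NEMO/Jnk2 DKO 1 was, against 18.9% and 22.7% of genes, and in the single knockouts 0, under both choices. Of 5 T, NK and B cell genes 0 passed in limma, with at most 2 at an unadjusted p under 0.05 in any comparison. Of 3 pancreas genes, Cela1, an elastase of exocrine pancreas, was lower without the doubted arrays in NEMO/Jnk1 DKO (-0.81, limma adjusted p = 0.00145, and 0.0951 as labelled) and in NEMO/Jnk2 DKO (-0.63, adjusted p = 0.00495, and 0.0744 as labelled) than in WT. The single knockouts were also below WT without these arrays, Jnk1 KO by -0.39 (adjusted p = 0.976) and Jnk2 KO by -0.47 (adjusted p = 0.126). The adipocyte genes Adipoq (2.10 to 2.96) and Plin1 (3.57 to 4.40) were dim, Adipoq in all arrays.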

How the data were processed

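RNA from 15 whole livers was hybridised to Affymetrix whole-transcript arrays. The values deposited by the authors are log2 expression levels. The submitters' processing notes name RMA as the normalization without a version, and base 2 was inferred from the values' range (1.14 to 13.9). The array build is not given in the sources used here.

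Of 35556 probe sets, 21789 had 1 symbol in the platform's gene table, 1621 had several and 12146 were not listed. A gene was read from its brightest single-symbol probe set by mean over all arrays (999 genes had a choice), which left 19938 genes. Groups came from the labels, and every array has its own mouse number there. Each comparison was a contrast in limma 3.58.1 (R 4.3.3, lmFit and eBayes) with 1 mean per group over all 15 arrays (10 residual and 3.75 prior degrees of freedom, and 8 and 5.05 without the 2 doubted arrays). Benjamini-Hochberg adjustment ran over all genes, with a threshold of 0.05 and no minimal fold change. A further fit held a sex term, with sex taken from Xist and Y-linked genes, and another left out the 2 doubted arrays. Both were chosen after earlier results were seen. The fit was tested on simulated data. Array medians lay between 4.26 and 4.38, and the number of arrays limits the precision.

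The members, the 5 pathway lists, the 10 marker lists and the rule for named genes were chosen with earlier results of these data known. Named were the members, Mapk8, Mapk9 and Ikbkg as label checks, up to 4 pathway genes past the threshold per list and comparison, and the 3 genes most correlated with each member past the threshold. Mmp12, Xist, Erbb4 and the marker genes given with their own differences (Tat, S100a8, Retnlg, Ly6g, Pecam1 and Cela1) are outside that rule. These markers were named because they passed, except Ly6g, which did not pass. Alternatives are listed in the closing section. RefSeq promoter windows (GRCm38.p6) were searched for motifs with Python 3.11.15, which also drew the figures through matplotlib 3.10.9.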

Additional observations from a re-analysis of the deposited data

How the results depend on the processing

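Across 27 settings besides the one reported, the 6 member differences past the threshold with all arrays or without the 2 doubted arrays kept their direction. These settings reuse the same arrays, and 15 of them leave out 1 array each. The fit without the 2 doubted arrays is among the 27. All differences but Nrg4 in Jnk2 KO against WT were selected by that fit, so their pass in it was fixed in advance. For Nrg4 in Jnk2 KO against Jnk1 KO it was the only pass. How often the 6 differences passed depended on the setting. Nrg4 in Jnk2 KO against WT passed in 10 of the 27 (difference 1.54 to 2.54), Nrg4 in NEMO/Jnk2 DKO against WT in 6 (1.13 to 1.80), Hbegf in NEMO/Jnk1 DKO against WT in 4 (0.27 to 0.44), Nrg4 in NEMO/Jnk1 DKO against WT in 3 (1.21 to 1.53), Btc in NEMO/Jnk2 DKO against WT in 3 (0.34 to 0.39) and Nrg4 in Jnk2 KO against Jnk1 KO in 1 (0.84 to 2.08).

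In NEMO/Jnk1 DKO against WT, 0 members passed as labelled and 2 (Hbegf and Nrg4) without the 2 doubted arrays, with only the arrays compared in the fit, or with array weights, and leaving out 1 array at a time gave 0 to 1. In NEMO/Jnk2 DKO against WT, 0 passed as labelled and 2 (Btc and Nrg4) in these 3 settings. The same 2 passed with the doubted arrays left out and a sex term, a setting chosen after seeing the data. That term could not change these differences, since the female-pattern arrays left were all NEMO/Jnk1 DKO. Leaving out 1 array at a time gave 0 to 1. In Jnk2 KO against WT, 1 passed as labelled and 0 with the female-pattern arrays left out, with only the arrays compared, with an intensity trend and robust prior, with a minimal fold change of 1.5, or with the replicate number as a block (replicate block), where Nrg4 kept its difference of 2.12 with an adjusted p of 0.0901 in limma; leaving out 1 array at a time gave 0 to 1. Between Jnk2 KO and Jnk1 KO, 0 passed as labelled and 1 without the doubted arrays. The cause of these changes was not tested. The replicate block changed no other member's call. Same-numbered arrays of different groups are different mice. Pearson r of their deviations ran from -0.395 to 0.304 over 24 pairs, 3 of them over 0.1. In 0 of 8 comparisons did every array correlate best with its own number. With 3 arrays per group this cannot exclude that same-numbered arrays share more than a number. Quantile normalization again, centring each array on its median, testing every probe set and the filter on dim probe sets (12589 genes above 4.09 in at least 3 arrays) did not change the number of members past the threshold in any comparison; that filter removed Egf and Ereg. A test of other probe sets of the same member was not run, since each measured member had 1 with a single symbol. Erbb2 has 1 further probe set that carries several symbols, which was not analysed.

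The counts over all genes moved more than those of members. As labelled and without the doubted arrays they were 0 and 1033 between NEMO/Jnk1 DKO and Jnk1 KO, 1 and 1167 between NEMO/Jnk2 DKO and Jnk2 KO, 13 and 1578 between NEMO/Jnk1 DKO and WT, 525 and 2116 between NEMO/Jnk2 DKO and WT, 2 and 3 between Jnk1 KO and WT, 82 and 248 between Jnk2 KO and WT, 26 and 119 between Jnk2 KO and Jnk1 KO, 21 and 64 between the double knockouts, and 109 and 223 between all Jnk2-null and all Jnk1-null livers. Over all settings they lay at 0 to 1033, 0 to 1167, 0 to 1578, 7 to 2116, 0 to 6, 8 to 248, 4 to 119, 3 to 97 and 9 to 223 in the same order, and at 0 to 2 for the difference of the NEMO effects. With the replicate block they were 7 between NEMO/Jnk1 DKO and WT and 263 between NEMO/Jnk2 DKO and WT.

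With 3 arrays per group, the 95% interval of the difference between NEMO/Jnk1 DKO and WT spanned -1.64 to 0.05 for Egfr and -0.24 to 0.11 for Tgfa, and Ereg and Egf were dim.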
